A study of Drosophila melanogaster with 3 samples.

Results

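Binding of Pdp1 at genes of haem synthesis was described from ChIP-seq peak lists of whole Drosophila melanogaster embryos. The 6 genes were Alas, Pbgs, Urod, Coprox, Ppox and FeCH, of 13945 protein-coding genes on 6 chromosome arms. Their peaks were selected by position, as the 9 of 13583 optimal summits that lay within 1 kb of a transcription start site (TSS) of these genes or inside them. All 6 symbols were found in the gene models. The genes were picked with their signals known, so signals, ranks and counts of bound members are descriptions and carry no test.

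The series held 1 group of 3 biological replicates, numbered 1 to 3 in the labels, and had no second condition. The embryos were 0 to 24 h old, of both sexes pooled, and came from the Pdp1-GFP line, a transgenic line with eGFP fused to the C-terminus of Pdp1, and chromatin sheared to 200 to 800 bp was precipitated with anti-GFP. The labels do not say whether untagged Pdp1 was present or which promoter drove the fusion. All embryonic cell types were mixed, so strong binding in few cells and weak binding in many cannot be told apart. Each replicate list and the pooled list held 30000 peaks, of which the authors kept 13583 of the pooled peaks as optimal. The lists carry peaks and no reads, so the depth of the libraries was unknown. Peak signal is the authors' value and has a different scale in each list. For comparison across replicates it was divided by the median of the 13583 strongest peaks of the same replicate, which was 206, 84.5 and 56.1 in replicates 1, 2 and 3.

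Haem, the iron porphyrin of cytochromes, catalase and the P450 enzymes, is made in 8 enzyme steps that begin and end in the mitochondrion. The first step joins glycine and succinyl-CoA and is the main control point of the pathway in animals. The middle steps build and trim the porphyrin ring, and the last inserts iron. Pdp1 is a bZIP factor of the PAR class, whose members bind palindromes of the form TTAYGTAA.

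Sequences that Pdp1 peaks covered are shown for 4 of the members and for Uros1, another gene of the pathway. They show stretches with and without a searched word. The word marked in Pbgs lies 93.5 bp from the summit, and Coprox and FeCH have no marked word. Alas, the only member with TTRYRYAA within 50 bp of its strongest summit, is not shown. The sequences are from RefSeq's Release 6 genome. Below are the 120 bases that end just before the TSS, 5' to 3' on the gene's strand, for 4 members (dm6, chr3L:12271346-12271465 minus for Pbgs, chr2L:6964301-6964420 plus for Coprox, chr3R:24661852-24661971 minus for Ppox and chr3R:31812297-31812416 minus for FeCH). The last line gives the 101 bases around the strongest summit of Uros1 (chrX:8899728-8899828, minus strand, coding exon), which is not among the 6 members. Capitals mark TTRYRYAA, the wider form of the PAR bZIP palindrome, and in Ppox the DRE word TATCGATA of housekeeping promoters. The stretch shown for Coprox lies under the weaker of its peaks.
Pbgs: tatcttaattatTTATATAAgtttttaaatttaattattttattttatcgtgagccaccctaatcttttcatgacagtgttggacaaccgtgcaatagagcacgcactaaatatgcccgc
Coprox: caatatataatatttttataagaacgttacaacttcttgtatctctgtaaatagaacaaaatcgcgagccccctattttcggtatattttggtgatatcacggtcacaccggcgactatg
Ppox: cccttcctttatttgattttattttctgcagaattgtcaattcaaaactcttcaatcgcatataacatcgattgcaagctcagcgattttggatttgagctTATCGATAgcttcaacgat
FeCH: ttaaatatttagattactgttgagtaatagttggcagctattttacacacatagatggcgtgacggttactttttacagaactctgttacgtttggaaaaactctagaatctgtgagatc
Uros1: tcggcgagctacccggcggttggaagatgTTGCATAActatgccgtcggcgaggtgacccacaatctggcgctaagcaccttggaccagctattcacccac

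Every member was bound, which here means that an optimal summit lay at most 1 kb from a TSS, as was so for 44.1% of all protein-coding genes. The 6 were also bound with limits of 500 and 250 bp, at which 38.0% and 31.0% of genes were, and 47.9% were with summits inside genes added. At 250 bp Coprox counted only through its weaker peak, which was among the 13583 strongest of replicate 2 alone. Their strongest summits had signals from 319 at Coprox to 5510 at Alas, with a median of 730, against a median of 462 over the 6148 bound genes. Of these summits, 2 of 6, at Alas and FeCH, were among the 1358 strongest optimal peaks, where 9.26% of all genes and 21.0% of bound genes had theirs. Each replicate had a peak within 200 bp of all 6 strongest summits among its 13583 strongest, which was the case for 33.2% of all protein-coding genes and 75.4% of bound genes. Of all 9 member summits 7 were recovered in this way, beside 60.6% of optimal summits. FeCH had 2 annotated start sites and the other 5 members 1 each.

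**Figure D1:**
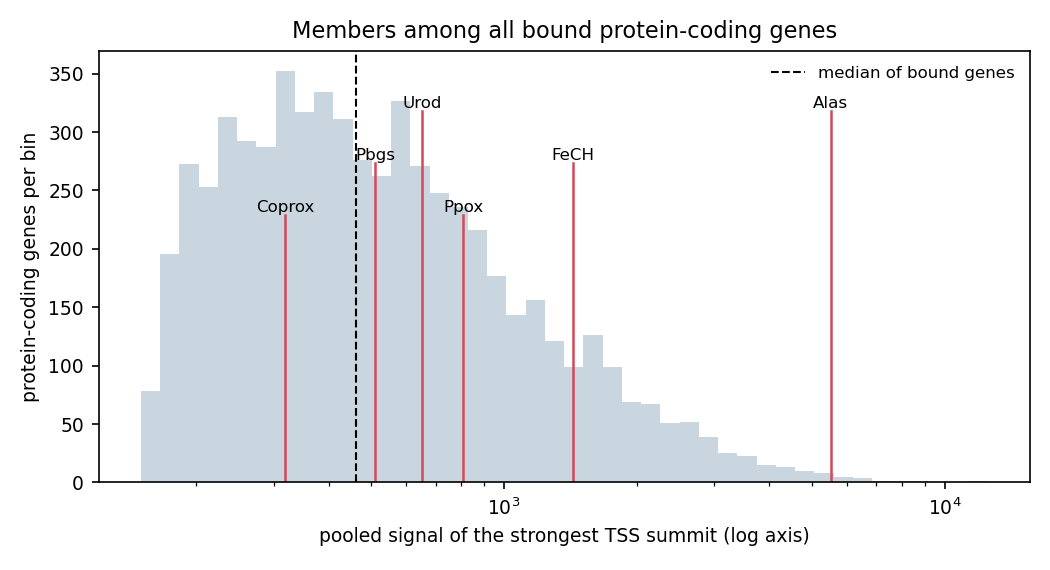
Histogram of the pooled signal of the strongest TSS summit (x axis, log scale, authors' signal units) over the 6148 bound protein-coding genes (y axis, genes per bin), with the 6 members as red lines and the median of 462 as a dashed line. Alas stands at 5510 in the upper tail, FeCH, Ppox, Urod and Pbgs lie above the median, and Coprox lies below it at 319.

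Alas (FBgn0020764) encodes 5-aminolevulinate synthase, the enzyme of the first step, and had the strongest peak of the 6 members. The gene spans 2R 23964772 to 23966757 on the plus strand, and the peak, at 23964500 to 23965182, had its summit in the 5' UTR 19 bp downstream of the TSS. Its pooled signal of 5510 ranked 15 in the optimal list. Replicates 1, 2 and 3 gave signals of 3358, 1276 and 900.3, at ranks 9, 35 and 17 of 30000. Relative to the list medians these are 16.3, 15.1 and 16.1, with a mean of 15.8 ± 0.64 (SD, n = 3). The replicates were close and all stood near the top. Among the bound genes Alas ranked 16 of 6148. A word of the form TTRYRYAA lay at this summit with its centre 13.5 bp downstream. No TSS of another gene lay within 1 kb of it.

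A second and much weaker Alas peak lay in an intron, at 23965911 to 23966346, 1357 bp downstream of the TSS. Its pooled signal was 192, at rank 11658, and its signals in replicates 1, 2 and 3 were 127, 23.4 and 42.2. In replicate 2 this peak ranked 22136 and was not among the 13583 strongest. It was the only one of the 9 member summits with the canonical TTAYGTAA, whose centre was 22.5 bp downstream, so in Alas the canonical word and the strong peak were at different places.

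Pbgs (FBgn0036271) encodes porphobilinogen synthase, which joins 2 molecules of aminolevulinate in the second step. The gene lies at 3L 12269452 to 12271345 on the minus strand, and its main peak, at 12271193 to 12271509, had an intergenic summit 11 bp upstream of the TSS with a pooled signal of 509 at rank 3835. The signals were 302, 124 and 83.1 in replicates 1, 2 and 3, or 1.47, 1.47 and 1.48 times the list medians. The ranks of 4189, 4259 and 3914 were close to each other. The coefficient of variation of 0.596% was the lowest among 5595 bound genes with a match in all 3 lists, over which the median was 31%. TTATATAA in the printed promoter lay 93.5 bp upstream of the summit and so outside the 50 bp searched around it. A second peak, at 12270284 to 12270422, had its summit in a coding exon 1014 bp downstream of the TSS, just outside the 1 kb limit but inside the gene. It had a pooled signal of 302 at rank 7607 and was among the strongest 13583 of all 3 replicates, with signals of 175, 83.5 and 38.9.

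Urod (FBgn0033428) encodes uroporphyrinogen decarboxylase, the enzyme of the fifth step. The gene lies at 2R 9584643 to 9586126 on the plus strand. Its single peak, at 9584662 to 9584951, had a summit in an intron 169 bp downstream of the TSS and a pooled signal of 653 at rank 2566. The replicate signals were 384, 164 and 101, at ranks 2925, 2862 and 2896, and the ratio to the median was 1.87 ± 0.0702 (SD, n = 3). The TSS of Smyd4-1, a gene on the other strand, is 98 bp from that of Urod and 267 bp from the summit. Of the words searched, the E-box CAGCTG was within 50 bp of this summit, as it was at 8.60% of the strongest summits of bound genes.

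Coprox (FBgn0021944) encodes coproporphyrinogen oxidase, the enzyme of the sixth step, and had the weakest binding of the members. The gene lies at 2L 6964421 to 6965887 on the plus strand, and its TSS is 347 bp from that of sip2, which runs the other way. The stronger peak, at 6963991 to 6964245, had a pooled signal of 319 at rank 7090. Its summit was 26 bp upstream of the sip2 TSS and 321 bp upstream of the Coprox TSS, so it lay nearer to sip2. The weaker peak, at 6964230 to 6964451, had a summit 67 bp upstream of the Coprox TSS and a pooled signal of 191 at rank 11747. With summits counted only where no other gene's TSS was nearer, a reading added after the values were seen, all 6 members stayed bound, against 35.2% of genes, but Coprox kept only the weaker peak. By that reading 5 of 6 members were recovered in all replicates, all but Coprox, against 25.6% of genes.

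The replicates differed at Coprox more than at any other member. The stronger peak had signals of 113, 158 and 45.2 in replicates 1, 2 and 3, at ranks 12143, 3003 and 8806. Relative to the medians these are 0.548, 1.87 and 0.806, a mean of 1.08 ± 0.703 (SD, n = 3), with replicate 2 above the others. The weaker peak had signals of 81.0, 95.3 and 13.2, at ranks 15703, 5921 and 25676, so replicate 2 was again the highest and the only replicate with this peak among its 13583 strongest. No word of the form TTRYRYAA lay within 50 bp of either summit.

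Ppox (FBgn0020018) encodes protoporphyrinogen oxidase, the enzyme of the seventh step. The gene lies at 3R 24660197 to 24661851 on the minus strand, and its peak, at 24661699 to 24662022, had an intergenic summit 17 bp upstream of the TSS and a pooled signal of 807 at rank 1743. The signals were 451, 206 and 146 in replicates 1, 2 and 3, at ranks 2229, 1961 and 1508. Relative to the medians the mean was 2.41 ± 0.206 (SD, n = 3), with all replicates between 2.19 and 2.6. The DRE word in the printed promoter had its centre 1.5 bp from the summit. It was within 50 bp of the strongest summit at 4.41% of bound genes, and among the members only Ppox had it. The word GATAAG on the other strand overlaps it, and was found at 7.60% of bound genes. The TSS of slo, which encodes a calcium-activated potassium channel, lies 640 bp away on the other strand and 623 bp from the summit.

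FeCH (FBgn0266268) encodes ferrochelatase, which inserts iron in the last step, and had the second strongest peak of the members. The gene lies at 3R 31810460 to 31812296 on the minus strand, and its peak, at 31812027 to 31812573, had an intergenic summit 55 bp upstream of the nearest TSS and a pooled signal of 1436 at rank 591. The signals were 767, 419 and 258 in replicates 1, 2 and 3, at ranks 777, 535 and 506. The ratio to the median was 4.43 ± 0.636 (SD, n = 3), with replicate 1 lowest at 3.72 and replicate 2 highest at 4.96. The TSS of RhoGAP100F, on the other strand, was 258 bp from the summit. No word of the form TTRYRYAA was found within 50 bp, although the peak ranked above those of 4 other members.

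**Figure D2:**
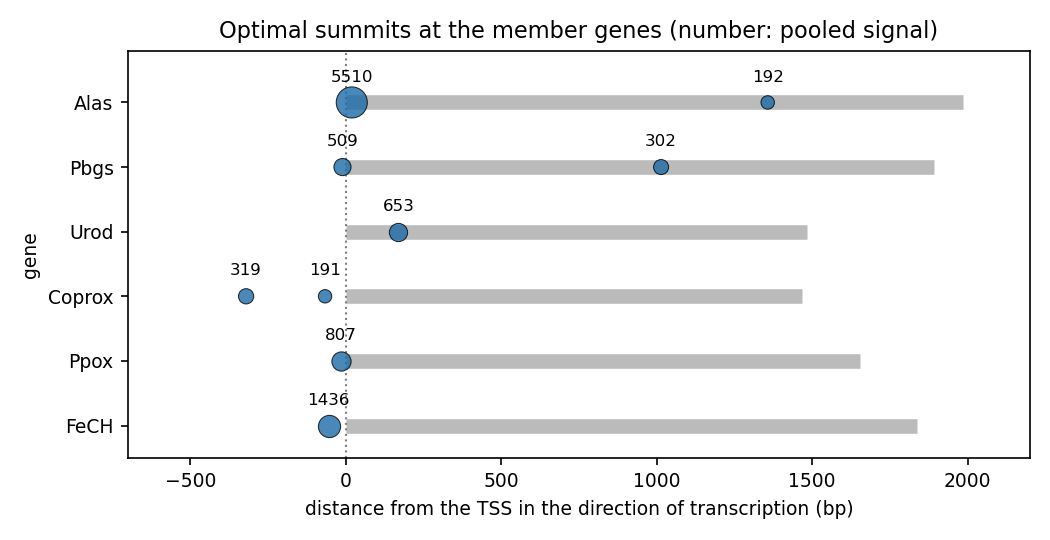
Position of the 9 optimal summits (circles, area growing with the square root of pooled signal, printed above each) relative to the TSS (x axis, bp in the direction of transcription) for the 6 members (y axis), with the gene as a grey bar. The strongest summit of 5 members lies within 200 bp of the TSS, and the strongest Coprox summit lies 321 bp upstream.

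The order of the members was nearly the same in every replicate. Alas was highest, followed by FeCH, Ppox and Urod, in all 3 replicates. Pbgs ranked above Coprox in replicates 1 and 3 and below it in replicate 2. By mean ratio to the list median the order was Alas (15.8), FeCH (4.43), Ppox (2.41), Urod (1.87), Pbgs (1.47) and Coprox (1.08). Among the 6148 bound genes FeCH ranked 654, Ppox 1588, Urod 2116, Pbgs 2827 and Coprox 4278 by pooled signal. The ranges over replicates of neighbours in this order did not overlap from Alas to Pbgs, while those of Pbgs and Coprox did. The range of Coprox, 0.548 to 1.87, also reached that of Urod, 1.8 to 1.94. The coefficient of variation over replicates had a median of 6.3% over the members, against 31% over the 5595 bound genes with matches in all lists, and was 65.4% at Coprox and at most 14.4% at each of the other 5. The spread of peaks of like strength was not compared.

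**Figure D3:**
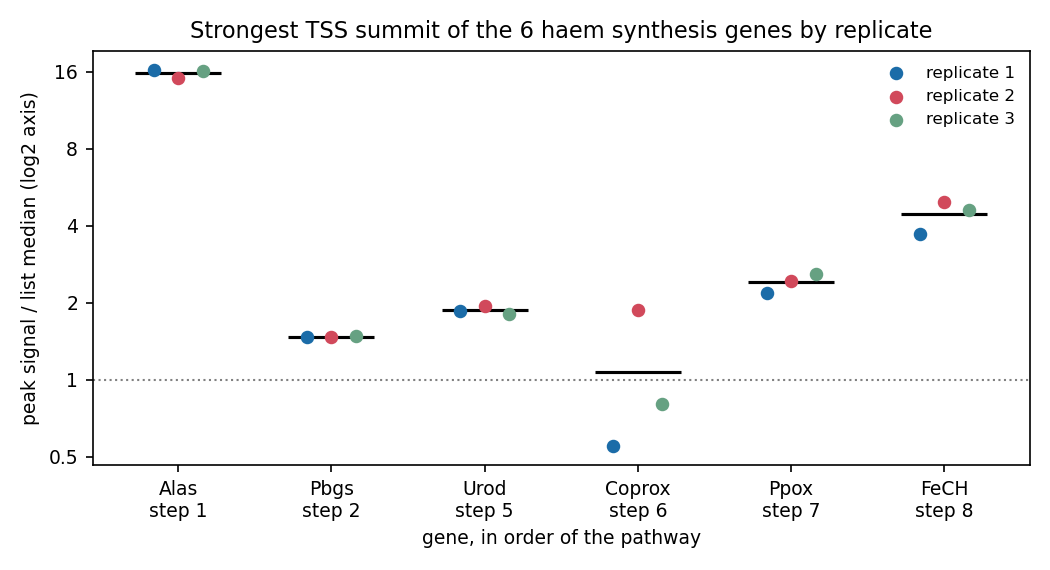
Signal of the strongest TSS summit divided by the list median (y axis, log2 scale) in replicates 1, 2 and 3 (coloured points) for the 6 members in order of their steps in the pathway (x axis), with bars for the means and a dotted line at 1. Replicates lie close together at all members but Coprox, where replicate 2 stands at 1.87 and the others at 0.548 and 0.806.

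Strongest summits of the members lay close to the start sites. They were within 200 bp at 5 of 6 members and within 100 bp at 4 of 6, against 50.8% and 32.9% of bound genes, and the median distance was 37 bp, against 195 bp. These counts come from 6 genes, and the rule itself limited the distance to 1 kb. At 4 of 6 members another protein-coding gene also had a TSS within 1 kb of the strongest summit, against 54.1% of bound genes, a share near that background. The members' promoters therefore include both single starts, at Alas and Pbgs, and paired ones, at Urod, Coprox, Ppox and FeCH.

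Of the members only Alas had the wider PAR bZIP form at its strongest summit. TTRYRYAA lay within 50 bp of the strongest summit at 1 of 6 members, Alas, against 28.8% of bound genes, and at 2 of all 9 member summits, both in Alas, against 35.8% of all optimal summits and 26.1% of those within 1 kb of a TSS. The canonical TTAYGTAA was at none of the 6, against 12.0% of all optimal summits and 8.34% of those within 1 kb of a TSS, and with so few genes no difference can be read from either count. TTAYGTAA and the C/EBP word TTGCGCAA are included in TTRYRYAA, and TTGCGCAA was at none of the 6 and at 0.732% of bound genes. The E-box CACGTG was found at none of the members and at 1.30% of bound genes. The core TATA word TATAAA was at none of the members, with 13.0% of bound genes, and the GAGA word GAGAGAG at none, with 1.87%. All words were searched on both strands, and the absence of a word says only that these letters were not in the window. With 1 mismatch allowed TTRYRYAA was found at 5 of 6 members, all but Coprox, against 71.8% of bound genes.

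Uros1 (FBgn0030066), which encodes uroporphyrinogen III synthase of the same pathway, was bound as well. It had a weak peak at X 8899694 to 8899904, in a coding exon 486 bp downstream of the TSS. Its pooled signal was 346 at rank 6451, and the replicate signals were 239.7, 54.1 and 47.9, at ranks 5695, 10851 and 8261. TTGCATAA lay 17.5 bp upstream of the summit. Its mean ratio to the list medians was 0.886 ± 0.263 (SD, n = 3), below the means of all 6 members, with a range that overlapped that of Coprox. The lower mean than at Coprox came from replicate 2, with 0.641 against 1.87. Uros1 was above Coprox in replicate 1 (1.16 against 0.548), in replicate 3 (0.854 against 0.806) and in pooled signal (346 against 319).

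Genes that use haem or supply its parts were mostly bound as well. Among 11 genes of haem use and breakdown 10 were bound, the exception being the globin gene glob1, against the background of 44.1%. An optimal summit did lie inside glob1, but more than 1 kb from its start sites. The highest signals were at Cpr, the reductase partner of P450 enzymes (2730, rank 125), Cox10, which makes haem O for cytochrome oxidase (2661, rank 139), Cat, encoding catalase (2219, rank 232), and Cyt-c1, encoding cytochrome c1 (1821, rank 346). Ho, the haem oxygenase gene, had a signal of 806 at rank 1754. The Cox10 and Ho summits were also the strongest TSS summits of Schip1 and Taf12, in that order. Of bound genes 54.1% had a TSS of another protein-coding gene within 1 kb of their strongest summit. A further gene of this list, entered as FLVCR, is annotated as HisT and is given no role here. It stays in all counts and in the median rank of the list. The HisT summit, 999 bp from a TSS, ranked 11339 and was the only one of the 10 that was not recovered in all 3 replicates. Of bound genes 75.4% were recovered in this way.

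Of 13 genes of iron supply and iron-sulphur cluster assembly 11 were bound, against 44.1% of all protein-coding genes. Nfs1, a cysteine desulphurase, and Tsf1, a transferrin, were not. The strongest was at mfrn, the mitochondrial iron importer (1837, rank 337), with a summit 951 bp downstream of the nearest TSS. Fer1HCH and Fer2LCH, the ferritin chains, are neighbours and share 1 summit (1823, rank 345), with TTAYGTAA at it, so the 11 bound genes rest on 10 strongest summits. IscU, the scaffold of cluster assembly, followed at 752 and rank 1987, with a summit that was also the strongest TSS summit of CG8379. All 7 genes of succinyl-CoA and glycine supply and of mitochondrial proteases were bound, against the same 44.1%. ScsbetaA (2602, rank 146) and Scsalpha1 (2324, rank 207) encode succinyl-CoA synthetase subunits, and Lon (2370, rank 200) and ClpP (1749, rank 388) encode proteases of the mitochondrial matrix that take part in turnover of ALAS enzymes in mammals. The Lon and ClpP summits were also the strongest TSS summits of PIG-F and CtsL4, in that order. The other 3 of the 7 listed genes had weaker peaks. ClpX, the partner of ClpP, had a signal of 382 at rank 5698, and ScsbetaG, a further succinyl-CoA synthetase subunit gene, 343 at rank 6529. Shmt, the glycine gene of the list, which encodes serine hydroxymethyltransferase, had a signal of 189 at rank 11832. Its peak ranked 11634, 11043 and 17613 in replicates 1, 2 and 3, so it was not among the 13583 strongest of replicate 3. In all, 6 of the 7 genes were recovered in all replicates, beside 75.4% of bound genes.

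Median ranks of the strongest summits were 2154.5 for the 6 members, 1062.5 for haem use and breakdown, 3187 for iron and 388 for substrates and proteases, against 4349.5 for all bound genes. TTRYRYAA was at 1 of 6, 5 of 10, 4 of 11 and 3 of 7 of the bound genes in these lists, beside 28.8% of bound genes. Genes were counted here and not summits, so the summit shared by Fer1HCH and Fer2LCH enters the 4 of 11 and the median rank for each of them. The lists hold widely expressed genes of mitochondria and metabolism, and whether other such genes are bound as often was not tested here.

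**Figure D4:**
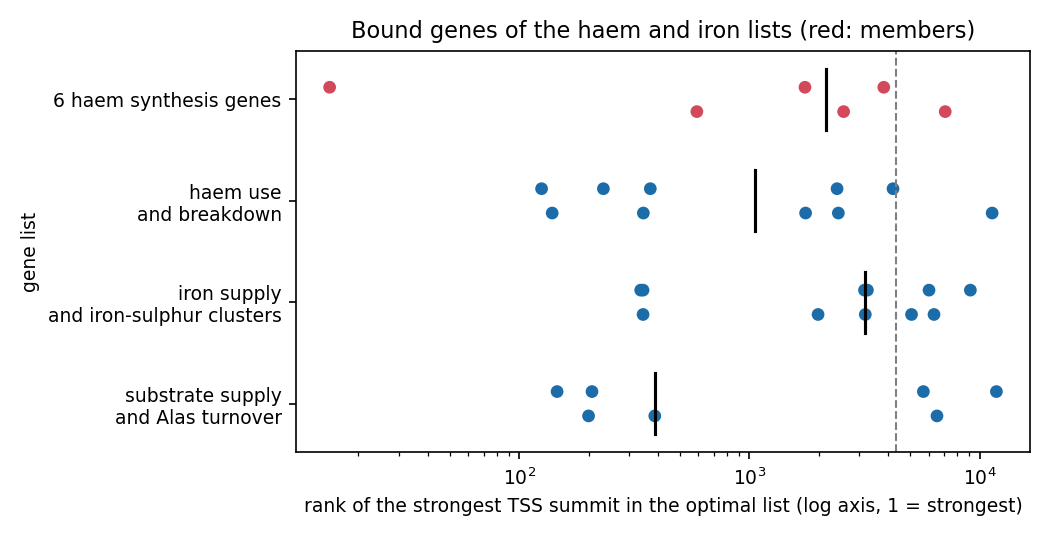
Rank of the strongest TSS summit in the optimal list (x axis, log scale, 1 is the strongest) for the 6 members (red) and the bound genes of the 3 other lists (y axis), with list medians as black bars and the median of all bound genes, 4349.5, as a dashed line. Points spread from rank 15 at Alas to rank 11832 at Shmt, and the medians of the members and of all 3 lists lie to the left of the dashed line.

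Genes with a rank profile like that of Alas were found by the summed absolute difference in log2 rank over the 3 replicates, among 5595 bound genes. The closest was Idh, an isocitrate dehydrogenase gene, with ranks 8, 33 and 7 and a distance of 1.53 log2 units. AQP and CG4627, which share a summit (ranks 22, 44 and 23), were at 2.06, ETHR, the ecdysis triggering hormone receptor gene, at 2.10 and Atg4b at 2.14. The Atg4b summit, at rank 13 in the optimal list, was also the strongest TSS summit of Hibch. Hibch therefore has the same ranks and distance as Atg4b. With 3 replicates and ranks near the top of each list this is a description of strength and says nothing of shared function.

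In the pooled list no peak other than these summits lay at a member, and in the replicate lists 1 did, at Alas in replicate 3 with a signal of 26.2. The member summit farthest from a TSS but within 1 kb was that of Coprox at 321 bp, with a signal of 319. The nearest optimal summit outside the rule was 1713 bp from the Alas TSS, with a signal of 756, and lay in the 5' UTR of Fmo-1. Beyond the end of Ppox, 2238 bp from its TSS, stood a peak with a signal of 3943 at rank 49, stronger than that of Ppox. Its summit was 8 bp from the TSS of CG31126 and ranked 46, 94 and 30 in replicates 1, 2 and 3.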

How the data were processed

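Anti-GFP ChIP-seq peak lists of 3 replicates, their pooled list and the optimal list (narrowPeak, dm6) were used. Per the deposited file records, peaks were called on alignments against a control with a relaxed threshold, and the authors took the optimal list from these by IDR, which keeps peaks with reproducible ranks. Aligner, peak caller and versions: not given in the sources used here. Signal and the −log10 q value (4.43, its cap, in all 9 member peaks of the optimal list) are the authors' deposited values. In the replicate lists the −log10 q value was only 0.644 at the Alas intron peak in replicate 2. At the weaker Coprox peak it was 2.98 in replicate 1 and 0.83 in replicate 3. The dm3 lists were not used here.

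A summit was the interval's start plus its offset, 1-based. All 13583 optimal lines were found in the pooled list, and of 133565 intervals on the arms 0 ended past an arm of the Release 6 genome, so dm6 coordinates were read with Ensembl release 115 gene models (BDGP 6.54) and RefSeq's Release 6 sequence. Replicate values came from the nearest summit within 200 bp, and words were searched within 50 bp of summits. Summits were assigned with Python 3.11.15 and pandas 2.3.3, tested on simulated data. The members, lists and words were chosen with earlier results of these data known. Named genes were the members and all their summits, Uros1, up to 4 bound genes of highest signal per other list, with Ho, Shmt, ScsbetaG, ClpX, HisT and the unbound genes named in addition after their values were seen, neighbours with a TSS within 1 kb, the 5 genes closest to Alas by rank profile and the summits next to the 1 kb limit. Hibch, Schip1, Taf12, CG8379, PIG-F and CtsL4, which share a summit with a named gene, were added after their values were seen. Of 39 listed genes all were matched, 5 of them through another spelling or name. No test was made, since the series has 1 group and the members were chosen by signal. Biological replicates share a fly line. A further listed item is not reported here.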

Additional observations from a re-analysis of the deposited data

How the results depend on the processing

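Of 30 alternatives computed, 28 left their result within 1.5 times the reported count or within the spread of replicates. Some of the 30 could not lower a count already at its maximum, such as leaving out a replicate or matching within 500 bp. The 30 also include alternatives for a count that is not reported here, so the 28 are no measure of robustness. The count of members with TTRYRYAA at the strongest summit was 2 in place of 1 within 100 bp, where Pbgs was added, and 0 for TTAYGTAA alone. Bound members stayed at 6 with start windows of 500 and 250 bp, at 250 bp with Coprox counted only through its weaker peak. They were 5, without Coprox, in the stronger part of the optimal list (6791 peaks). Sets without 1 replicate also gave 6 but could not give fewer. The optimal list was kept in these sets, and each replicate held all 6 strongest summits. Members found in all 3 replicates were 5 with the 6791 strongest peaks per replicate. In an alternative chosen after seeing the data, with summits nearer to the gene's own TSS than to another's, 6 members were bound, against 35.2% of all genes, and 5 members, all but Coprox, were found in all 3 replicates, against 25.6%. Leaving out a replicate gave Alas mean ranks over the other replicates from 13 to 26, against a median of 17 over all 3. No paired analysis was possible because the series has 1 group. Depth was unknown, so precision rests on 3 replicates.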
